A study of Mus musculus with 6 samples.

Results

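The genes described here are 3 members of the mouse Ly6 family (Ly6a, Ly6c1 and Ly6d) and 2 genes of epithelial barrier peptides, Sprr1a and Defb1. The 5 were picked by name, with their change between the groups known, from 55536 genes in a table of mouse liver RNA. The 6 samples, 1 library each, came from livers of C57BL/6 mice aged 8 to 10 weeks that all carried floxed VMP1 alleles, which lose the DNA between their loxP sites where Cre recombinase acts. Through a vein, 3 control samples had received AAV8-TBG-null, an empty adeno-associated virus, and 3 samples labelled hepatocyte-specific VMP1 knockout AAV8-TBG-cre. The livers were taken after 2 weeks. AAV8 reaches the liver efficiently and the TBG promoter is active in hepatocytes, so other liver cells are meant to keep the intact gene. VMP1 sits in the endoplasmic reticulum membrane and has roles in autophagy and lipid handling, and the series title names lipoprotein secretion and steatohepatitis, fatty liver with inflammation. Levels are in TPM, a length-corrected abundance that sums to the same total in each library, so that levels of different genes can be set side by side. The depth is unknown.

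Ly6 proteins are small cysteine-rich proteins, mostly tethered to the outer cell surface by a lipid (GPI) anchor. Ly6a, also called Sca-1, marks blood stem cells in the mouse and is found on endothelium, fibroblasts and lymphocytes, and interferons raise it. Ly6c1 is found on endothelium and lymphocytes, and Ly6d on early B-lineage cells and on stratified epithelium. Sprr1a encodes a small proline-rich protein that transglutaminases crosslink into the cornified envelope of squamous epithelium, and it is also known as a gene induced by injury. Defb1 encodes a beta-defensin, a secreted antimicrobial peptide of epithelial surfaces.

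The knockout label was not borne out by the level of the targeted gene. Vmp1 was at 70.65, 96.5 and 88.6 TPM in control livers, against 157, 136 and 137 TPM in the knockout-labelled livers. The log2 fold change was 0.75 ± 0.13 as deposited (adjusted p = 0.00038) and -0.18 with median-of-ratios scaling (adjusted p = 0.2). A value per gene does not check a deletion of some of its exons, and directions below rest on the labels. Hepatocyte markers summed to 69750 to 93070 TPM in control livers, against 42150 to 42910 TPM in the knockout-labelled livers, so the tissue label held in all 6 libraries. Of 12796 genes tested with limma on log2(TPM + 1), 74.5% were called higher and 10.7% lower in the knockout-labelled livers at a Benjamini-Hochberg adjusted p under 0.05. Median-of-ratios scaling, which centres the bulk of genes on no change, took the median log2 fold change over all genes tested from 0.77 to -0.01, and the median change of a single gene's value was -0.83. After it, 35.1% of genes were called higher and 36.6% lower. Whether the 3 samples of a group are 3 animals is not stated in the labels. If they are not, the p-values reflect technical spread. In whole liver, more cells of a type and more RNA per cell cannot be told apart.

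Ly6d, Sprr1a, Defb1 and Ly6a were scarce in control liver and abundant in the knockout-labelled livers, while Ly6c1 stayed a low transcript in both groups. All 5 passed the filter of at least 1 TPM in at least 3 libraries, Ly6a and Ly6d with 1 TPM or more in all 6, and Ly6c1, Sprr1a and Defb1 only through the knockout-labelled libraries. Each of the 5 was higher in every knockout-labelled library than in any control. The groups did not overlap in this direction in 75.5% of genes tested and in 48.5% of genes above 0 TPM in any library (11.3% and 6.81% in the other direction). Since this difference chose the genes, it is given as a description with no test. Values below are TPM per library in the order of replicates 1, 2 and 3, and fold changes are labelled knockout minus control on the log2(TPM + 1) scale ± SE, which understates the change of low genes.

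Ly6d (ENSMUSG00000034634) lies at chr15:74762056-74763620 on the minus strand of GRCm38, the build also called mm10, and has 1 annotated transcript of 3 exons. It was at 1.36, 1.17 and 1.54 TPM in control livers, against 518, 441 and 566 TPM in the knockout-labelled livers. It was the most even of the 5 in the knockout-labelled livers, with a mean of 508 ± 63.2 TPM (SD, n = 3) against 1.36 ± 0.185 TPM. The log2 fold change of Ly6d was 7.75 ± 0.12, number 7 in size among genes tested, and 6.99 with median-of-ratios scaling. By mean level it went from rank 10307 to rank 269 of all genes in the table.

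Ly6a (ENSMUSG00000075602, chr15:74994877-74998031, minus strand) was at 4.14, 5.5 and 6.24 TPM in control livers, against 409.9, 149 and 312 TPM in the knockout-labelled livers. It was the highest of the 5 in control livers and the most uneven in the knockout-labelled livers, where its highest library was 2.76 times its lowest. Its log2 fold change was 5.43 ± 0.40, and 4.55 with median-of-ratios scaling. Within each library, a comparison that no scaling changes, Ly6d was below Ly6a in the controls, at 0.328, 0.213 and 0.247 times its level. In the labelled knockout Ly6d was above Ly6a, at 1.26, 2.96 and 1.81 times its level.

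Ly6c1 (ENSMUSG00000079018, chr15:75044018-75048830, minus strand) was at 0.17, 0.43 and 0.33 TPM in control livers, against 3.86, 2.38 and 2.21 TPM in the knockout-labelled livers. Its log2 fold change of 1.52 ± 0.17 was number 2212 in size, against 34 for Ly6a, and it was 1.07 with median-of-ratios scaling and 0.66 with quantile normalization. Its means were 0.31 ± 0.131 TPM and 2.82 ± 0.907 TPM (SD, n = 3). By mean level Ly6c1 was at rank 10648 of all genes in the knockout-labelled livers, far below the other 4.

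Part of the reads of Ly6c1 cannot be told from those of its neighbour Ly6c2, a monocyte-associated gene. The coding sequences of their lowest-numbered GENCODE transcripts are 97.7% identical and differ at 9 of 393 bases, and 6 of these lie in the first 90 bases. These first 90 coding bases, from GENCODE M21 transcripts, are printed because they hold most of the differences between the Ly6c1 and Ly6c2 coding sequences. Reads from here can tell Ly6c1 from Ly6c2 better than reads from the rest of the coding sequence. Ly6a has the same base as Ly6c1 at most of these positions, and it was far more abundant in the knockout-labelled livers. Capitals mark the bases at which Ly6c1 and Ly6c2 differ, and Ly6a is given without marks.
Ly6c1: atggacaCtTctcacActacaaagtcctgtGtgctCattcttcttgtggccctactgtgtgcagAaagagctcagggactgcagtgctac
Ly6c2: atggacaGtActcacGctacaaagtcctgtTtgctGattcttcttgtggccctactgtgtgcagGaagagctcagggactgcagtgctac
Ly6a: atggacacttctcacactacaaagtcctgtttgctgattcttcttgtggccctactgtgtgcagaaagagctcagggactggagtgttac
Over all GENCODE transcripts, 32.8% of the 50-base stretches of Ly6c1 and 19% of those of Ly6a also occur in transcripts of other genes, most often in Ly6c2 (21.5%) and Ly6c1 (15%) respectively. For Ly6d, Sprr1a and Defb1 none (0) of these stretches is shared. The single values of Ly6c1 and Ly6c2 are therefore uncertain. Ly6c2 was at 0.32, 0.39 and 0.49 TPM in control livers, against 6.09, 10.01 and 5.56 TPM in the knockout-labelled livers. Its log2 change was 2.52 ± 0.19. Being under 1 TPM in every control, Ly6c2 passed the filter only through the knockout-labelled libraries, so no p-value is given. Ly6c1 was at 0.531, 1.1 and 0.673 times Ly6c2 in control livers and at 0.634, 0.238 and 0.398 times in the knockout-labelled ones, ranges that overlap.

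Sprr1a (ENSMUSG00000050359, chr3:92483952-92485895, minus strand, 2 exons) was listed at 0, 0 and 0.19 TPM in control livers, against 380.02, 222 and 283 TPM in the knockout-labelled livers. It had the largest log2 fold change of the 5, 8.09 ± 0.19, number 3 in size among genes tested, and 7.59 with median-of-ratios scaling. Its coding sequence carries the feature that names the family. Of 143 codons, 46 encode proline, 16 glutamine and 15 cysteine, and the bases recur with a period of 24. The 5 repeat units at coding bases 160 to 279 are printed to show the repeats, with capitals for bases that are the same in all 5.
Sprr1a: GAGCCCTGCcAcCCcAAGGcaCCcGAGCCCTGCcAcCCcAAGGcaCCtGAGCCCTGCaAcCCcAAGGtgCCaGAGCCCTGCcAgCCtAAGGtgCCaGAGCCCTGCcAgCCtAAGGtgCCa

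Defb1 (ENSMUSG00000044748, chr8:21776599-21795185, plus strand, 2 exons) was at 0.39, 0.96 and 0.55 TPM in control livers, against 394, 238 and 348 TPM in the knockout-labelled livers. Its log2 fold change was 7.63 ± 0.20, number 9 in size, and 6.97 with median-of-ratios scaling. Its coding sequence has 68 codons, of which 7 encode cysteine, the residue that holds the defensin fold together. Defb1 and Sprr1a stood at near-equal levels, with Sprr1a at 0.963, 0.931 and 0.813 times Defb1 in the knockout-labelled libraries. Against Ly6d, the levels were 0.762, 0.541 and 0.616 times for Defb1 and 0.734, 0.504 and 0.501 times for Sprr1a, so both were below Ly6d in each.

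In the labelled knockout Ly6d was above the other 4 in each library. Below it the order changed with the library, since Ly6a led Defb1 and Sprr1a in replicate 1, came last of them in replicate 2 and stood between them in replicate 3. Their means of 290.3 ± 132 TPM for Ly6a, 327 ± 80.3 TPM for Defb1 and 295 ± 79.7 TPM for Sprr1a lay within each other's SD. Replicate 2 was the lowest of the knockout-labelled libraries for Ly6a, Ly6d, Sprr1a and Defb1, and the highest for Ly6c2.

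**Figure D1:**
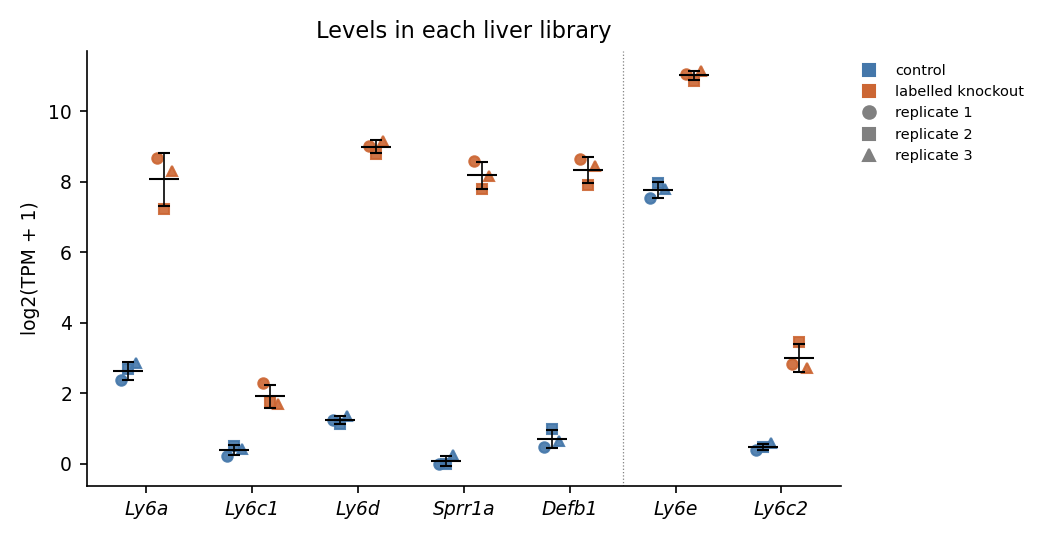
Level of each gene on a log2(TPM + 1) axis in the 3 control (blue) and 3 labelled knockout (orange) libraries, with marker shapes for replicates and bars for the mean and SD of the log2 values. Ly6a, Ly6d, Sprr1a and Defb1 rise from near the floor to 149 TPM or more, Ly6c1 stays under 4 TPM, and 2 relatives stand to the right of the dotted line.

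**Figure D2:**
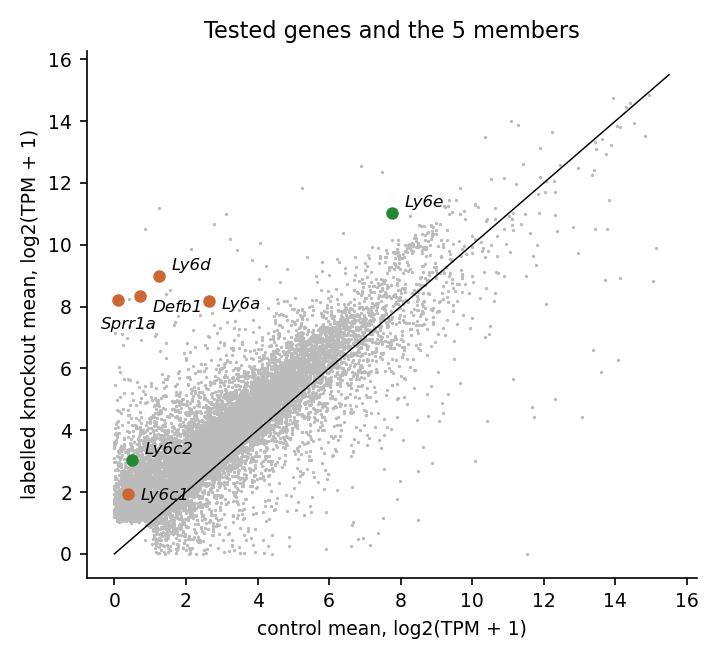
Mean level of each of 12796 tested genes in control (x) and labelled knockout (y) libraries, both as log2(TPM + 1), with the line of equal level. The 5 genes are orange and Ly6e and Ly6c2 green. Most grey points lie above the line, as the 74.5% called higher implies, and Ly6c1 lies inside the cloud while the other 4 lie above it.

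The genes named Ly6 were already dominated in control livers by Ly6e, a broadly expressed interferon-inducible family member. Ly6e (chr15:74955051-74959905, plus strand) was at 183, 247 and 222 TPM in control livers, against 2129, 1862 and 2231 TPM in the knockout-labelled livers. Its log2 fold change of 3.26 ± 0.14 (adjusted p = 6.8e-08 in limma) was 2.31 with median-of-ratios scaling (adjusted p = 3.5e-06). Of the summed TPM of 16 genes named Ly6, Ly6e held 96.2% to 96.9% in control livers, against 69.4% to 75.5% in the knockout-labelled livers. Ly6d held 0.46% to 0.717% in control livers and 16.9% to 18.1% in the knockout-labelled ones. Ly6a held 2.16% to 2.7% and 6.03% to 13.4%. Ly6d was at 0.00743, 0.00474 and 0.00692 times the level of Ly6e in control livers. In the knockout-labelled ones Ly6d was at 0.243, 0.237 and 0.254 times Ly6e. The ratio was near-constant in the labelled knockout and less even in the controls, and both spreads were small beside the gap between the groups. Ly6e was at 44.2, 44.9 and 35.6 times Ly6a in control livers and at 5.19, 12.5 and 7.14 times in the knockout-labelled ones. The sum itself was 189.7 to 255 TPM in control livers and 2466 to 3118 TPM in the knockout-labelled ones.

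Other members of the wider Ly6 and urokinase receptor family were read from a list of 40 genes, of which 36 were in the table and 9 could be tested. Of these 9, 7 rose and 1 fell, shares near the 74.5% and 10.7% of all genes tested. The same 7 and 1 were called with both scalings, where 35.1% and 10.7% of all genes were. Median-of-ratios scaling alone gave 2 lower, where 36.6% of all genes were lower. The median log2 fold change of the 9 was 2.52. The filter admitted 5 of the 9 only through the labelled knockout. Plaur, the urokinase receptor, which focuses plasmin formation at the cell surface, was 1 of these 5. It was at 0.24, 0.22 and 0.09 TPM in control livers, against 28.2, 19 and 27.9 TPM in the knockout-labelled livers. Its log2 change was 4.44 ± 0.15, given with no p-value since it could be called in 1 direction only. Gml and Gml2 lie beside Ly6d, and 18.7% of the 50-base stretches of Gml also occur in Gml2, so their single values are uncertain. Both were listed at 0 in all 3 controls. Gml reached 12.1, 6.51 and 14.5 TPM and Gml2 10.9, 6.16 and 12.1 TPM in the knockout-labelled livers, so no fold is given. Cd59b, which encodes a protector against complement lysis, fell by 1.15 on the log2 scale (adjusted p = 8.8e-05), from 6.87 ± 1.05 to 2.57 ± 0.696 TPM. Its paralog Cd59a was at 39 ± 3.52 TPM in controls and 33.3 ± 1.71 TPM (log2 fold change -0.22, adjusted p = 0.063), and was called lower with median-of-ratios scaling (-1.14, adjusted p = 1.4e-05). Of the 36, 27 were under 1 TPM in every library and 12 of these were listed at 0 in all 6. With no filter, 12 of 24 were called higher and 1 lower, against 44.3% and 5.7% of all genes so tested, among them low genes such as Ly6i and Ly6k. Another under 1 TPM was Ly6g, the neutrophil surface marker, at 0.13 TPM or less.

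The relatives of Sprr1a and Defb1 stayed near 0 in both groups. All 15 other Sprr genes were too low to test, 9 of them were listed at 0 in all 6 libraries, and the highest single value was 1.15 TPM, for Sprr2a2 in labelled knockout replicate 1. Together the 15 summed to at most 0.07 TPM in a control library and 1.81, 0.07 and 0.12 TPM in the knockout-labelled livers, against 380.02, 222 and 283 TPM for Sprr1a alone. With no filter, where 44.3% of genes were called higher and 5.7% lower, limma called 0 of the 6 Sprr genes tested, and 0 had an unadjusted p under 0.05. Of 41 other beta-defensin genes with a value, 34 were listed at 0 throughout, and none reached more than 0.27 TPM in a library. With no filter 1 of 7 was called, Defb42, at 0.03 TPM or less in each library.

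**Figure D3:**
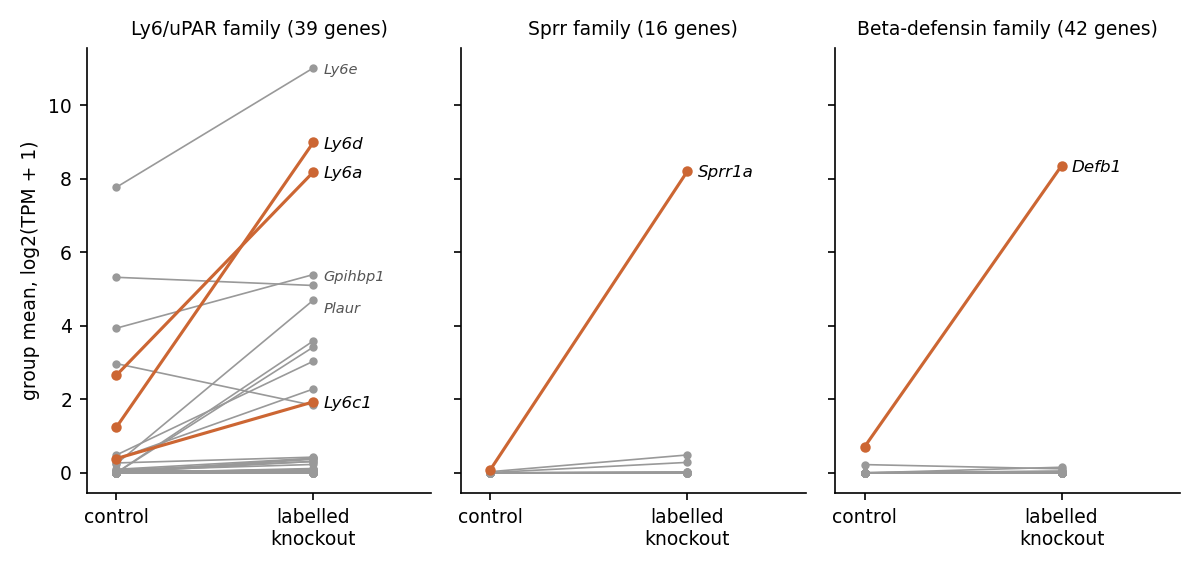
Mean level per group, as log2(TPM + 1), for 39 genes of the Ly6 and urokinase receptor family, 16 Sprr genes and 42 beta-defensin genes, 1 line per gene, with the 5 members in orange. In the Sprr and beta-defensin panels a single line leaves the floor, while in the first panel several relatives rise as well.

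Most tested chromosomal neighbours of the Ly6 genes were higher, as were most of all genes tested. The neighbours of Sprr1a and Defb1 were low. Among the 19 nearest protein-coding genes around the 3 Ly6 members on chromosome 15 (5 on each side of each gene, members left out), 7 could be tested, of which 6 rose and 1 fell, against 74.5% and 10.7% of all genes tested. Ly6c2, Lynx1, Gml and Gml2 among those that rose were under 1 TPM in every control and could pass the filter only by being higher. The gene that fell was BC025446, at 70.9 ± 10.03 TPM in control livers and 26.5 ± 5.51 TPM in the knockout-labelled ones. Its log2 fold change was -1.40 ± 0.16 with adjusted p = 3.6e-05 in limma. Of the 10 neighbours of Sprr1a only Gm9774 could be tested, and it was higher by 0.45 ± 0.13 as deposited (adjusted p = 0.0092) and at -0.03 with median-of-ratios scaling. The involucrin gene Ivl, another cornified envelope precursor near Sprr1a, was listed at 0 in control livers, against 3.53, 0.34 and 1.66 TPM in the knockout-labelled livers. None of the 10 neighbours of Defb1, which are alpha-defensin, beta-defensin and related genes, exceeded 0.06 TPM.

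RefSeq promoter sequences (GRCm38.p6) were at hand for 2 of the 5 members, Sprr1a and Ly6c1. The promoter of Sprr1a is shown beside that of Sprr1b, since these paralogs differ so widely in level, 380.02 TPM against 0.02 TPM at their highest. Each run gives the 250 bases before the start site, 5′ to 3′ on the minus strand of chromosome 3, at chr3:92485882-92486131 for Sprr1a and chr3:92438780-92439029 for Sprr1b. Capitals mark matches to the motifs searched.
Sprr1a: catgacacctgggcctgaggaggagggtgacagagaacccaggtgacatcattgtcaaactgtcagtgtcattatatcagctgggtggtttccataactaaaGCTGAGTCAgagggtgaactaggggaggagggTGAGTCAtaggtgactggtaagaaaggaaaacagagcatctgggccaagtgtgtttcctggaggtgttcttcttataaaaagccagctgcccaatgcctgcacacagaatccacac
Sprr1b: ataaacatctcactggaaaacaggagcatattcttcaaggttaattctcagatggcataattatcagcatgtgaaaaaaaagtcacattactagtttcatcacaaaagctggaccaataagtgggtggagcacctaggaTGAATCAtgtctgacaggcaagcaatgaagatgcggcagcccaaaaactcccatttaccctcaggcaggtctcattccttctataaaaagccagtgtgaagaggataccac
On both strands the search took TGANTCA (AP-1), GAAA repeated after 2 bases of any kind (interferon-stimulated response element), TTCNNNGAA (STAT), TGACNNNGC (antioxidant response element core) and GGGA followed after 4 bases of any kind by CC (NF-kappaB). The Sprr1a promoter held TGAGTCA at -146 and again at -116, counted to the first base of the match with -1 as the base before the start. A TGACNNNGC match on the other strand at -148 overlaps the first of them. At least 1 TGANTCA occurs in 6.75% of 32851 promoters of this length and at least 2 in 0.338%, while 10.2% hold TGACNNNGC, 7.02% the STAT pattern and 2.98% the interferon one. Sprr1b held 1 TGANTCA match, at -111. Of the 5 motifs, each of the 2 Ly6c1 promoters held only the NF-kappaB pattern, once, which occurs in 17.6% of promoters. These matches describe letters, not bound sites.

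Genes encoding AP-1 and related leucine zipper proteins were read from a list of 13. Of 12 tested, 9 rose and 0 fell in limma (9 and 0 at an unadjusted p under 0.05), a share of rises near the 74.5% of all genes tested. With median-of-ratios scaling 8 were higher and 1 lower, against 35.1% and 36.6% of all genes. Of the 12, 3 were under 1 TPM in every control. The median log2 fold change of the list was 1.62. Fosl1, which encodes FRA-1, was at 0.04, 0 and 0 TPM in control livers, against 18.8, 7.32 and 21.1 TPM in the knockout-labelled livers. Atf3, a stress-induced factor, rose from 0.897 ± 0.526 to 29.1 ± 2.88 TPM, a log2 change of 4.02 ± 0.19. Mafk rose by 2.53 ± 0.12. Fos, Jun and Junb were not called, with Jun at 4.95, 19.9 and 33.9 TPM in the controls. Mafg was higher by 0.56 as deposited and lower by median-of-ratios scaling (-0.35).

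Cornified envelope genes beyond the Sprr family were mostly too low to test. Of 50 listed, 12 were tested, 10 rose and 1 fell, shares near the 74.5% and 10.7% of all genes tested, and 3 of the 12 were under 1 TPM in every control. With median-of-ratios scaling 8 were higher and 2 lower, against 35.1% and 36.6% of all genes. Their median log2 fold change was 1.56. S100a11, a calcium-binding protein of many epithelia, was at 8.92, 9.4 and 10.7 TPM in control livers, against 992, 764 and 969 TPM in the knockout-labelled livers, a log2 change of 6.41 ± 0.13 with adjusted p = 1.9e-09. Sfn, which encodes the epithelial adaptor stratifin, rose by 4.34 ± 0.16 to 27 ± 6.57 TPM. It was under 1 TPM in every control, so it could be called in 1 direction only. Anxa1, the annexin A1 gene, rose by 2.73 ± 0.14 to 12.2 ± 2.38 TPM. Krt10, a keratin of suprabasal epidermis, fell by 0.75 ± 0.16 from 2.04 ± 0.0917 TPM. Of the list, 37 genes were under 1 TPM in every library.

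Secreted antimicrobial proteins other than beta-defensins moved both ways. Of 37 listed, 14 were tested, of which 8 rose and 5 fell, against 74.5% and 10.7% of all genes tested. With median-of-ratios scaling 7 were higher and 6 lower, against 35.1% and 36.6%. Of the 14, 2 were under 1 TPM in every control. The median over the 14 was 2.09 on the log2 scale. Slpi, a leukocyte protease inhibitor of mucosal secretions, was at 2.98, 1.05 and 1.14 TPM in control livers, against 247, 453 and 311 TPM in the knockout-labelled livers, a log2 change of 6.98 ± 0.34 with adjusted p = 4.5e-06. Lcn2, the siderophore-binding lipocalin, rose from 37 ± 11.6 to 3619 ± 1579 TPM, a log2 change of 6.51 ± 0.44. Wfdc3, under 1 TPM in every control and so open to a call in 1 direction only, rose by 5.63 ± 0.33 to 58.4 ± 28.2 TPM. The liver-made peptide gene Leap2 fell by 2.57 ± 0.14 from 75.5 ± 11.4 TPM, Hamp2 by 2.25 ± 0.45 and Wfdc21 by 2.01 ± 0.17. The level of Defb1 in knockout-labelled livers, 327 ± 80.3 TPM, was close to that of Slpi, 337 ± 106 TPM.

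Interferon response genes, the class to which Ly6a and Ly6e belong as background knowledge, were higher as deposited, with 3 of them lower after median-of-ratios scaling. Of 39 tested on a list of 40, 39 rose and 0 fell in limma (39 and 0 at an unadjusted p under 0.05), where 74.5% of all genes tested rose. After that scaling 34 stayed higher, where 35.1% of all genes were higher. Of the 39, 4 were under 1 TPM in every control. Over the list the median change was 2.15 on the log2 scale. Rsad2 rose by 7.75 ± 0.17, Cxcl10 by 6.99 ± 0.13 and Oasl1 by 6.94 ± 0.14.

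Markers of other cells that carry these transcripts were higher in the knockout-labelled livers too. Sinusoidal endothelial markers summed to 79.6 to 94.6 TPM per control library and 232 to 294 TPM per knockout-labelled library. Vascular endothelial markers summed to 15 to 16.7 TPM and 52.8 to 53.6 TPM, and those of stellate cells and fibroblasts to 53.7 to 58.9 TPM and 303 to 360 TPM, in the same order. T and NK cell markers summed to 2.55 to 2.7 TPM and 14.4 to 20.6 TPM, and monocyte markers to 5.92 to 7.32 TPM and 190.1 to 293 TPM. As deposited, where 74.5% of all genes tested rose, tested markers that rose numbered 12 of 12 for sinusoidal and 10 of 10 for vascular endothelium and 13 of 13 for stellate cells and fibroblasts. With median-of-ratios scaling, where 35.1% of all genes were higher, these numbered 8, 9 and 12, and 1 vascular marker was lower. Of the tested markers, 4 vascular ones and 2 of stellate cells and fibroblasts were under 1 TPM in every control. These passed the filter only through the knockout-labelled libraries and could be called in 1 direction only. All 4 T and NK cell markers and 7 of 8 monocyte markers tested were under 1 TPM in every control, so they could be called in 1 direction only and no count is read from them. The part of these cells in the values of Ly6a and Ly6c1 was not tested.

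Lymphoid and squamous epithelial cells are known to carry Ly6d. The B and plasma cell markers summed to 3.6 to 8.35 TPM in control livers, against 37.6 to 38.7 TPM in the knockout-labelled livers, and plasmacytoid dendritic cell markers to 3.97 to 5.04 and 24.6 to 31 TPM. Most of the markers tested on either list were under 1 TPM in every control. Squamous epithelial markers summed to 2.08 to 2.21 TPM in control livers, against 3.03 to 5.1 TPM in the knockout-labelled livers, and Krt1, Krt15, Krt6a and Krtdap were at 0 in all 6 libraries. Of 2 that could be tested, Krt5 was listed at 0 in control livers, against 2.35, 3.7 and 2.36 TPM in the knockout-labelled livers, and Krt10 fell. The part of these cells in the values of Ly6d and Sprr1a was not tested.

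Bile duct markers, of the other liver epithelium, summed to 29.3 to 41.9 TPM in control livers, against 158 to 228 TPM in the knockout-labelled livers. Of 12 tested, 10 rose and 0 fell, against 74.5% and 10.7% of all genes tested. With median-of-ratios scaling 10 were higher and 1 lower, against 35.1% and 36.6%. Of the 12, 8 were under 1 TPM in every control. Spp1 made up most of the sum. Of the others, Cldn4 was at 0.00667 ± 0.00577 TPM in controls and 10.8 ± 4.29 TPM in the labelled knockout. Krt19 was at 0.66 ± 0.0458 and 2.1 ± 0.506 TPM, and Epcam at 0.44 ± 0.122 and 2.28 ± 0.248 TPM. All 3 rose, and all 3 were under 1 TPM in every control. The part of bile duct cells in the values of Defb1, Ly6d and Sprr1a was not tested. Mesothelial markers summed to 0.96 to 2.28 TPM in control livers, against 0.63 to 1.44 TPM in the knockout-labelled livers, and none could be tested. Macrophage markers summed to 138 to 244 and 1407 to 1935 TPM, and 11 of 12 tested rose, where 74.5% of all genes tested rose. After median-of-ratios scaling 11 were higher, where 35.1% of all genes were. Neutrophil markers summed to 2.62 to 4.02 and 30.1 to 63.6 TPM, and S100a8 and S100a9 among them also stand on the antimicrobial list.

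**Figure D4:**
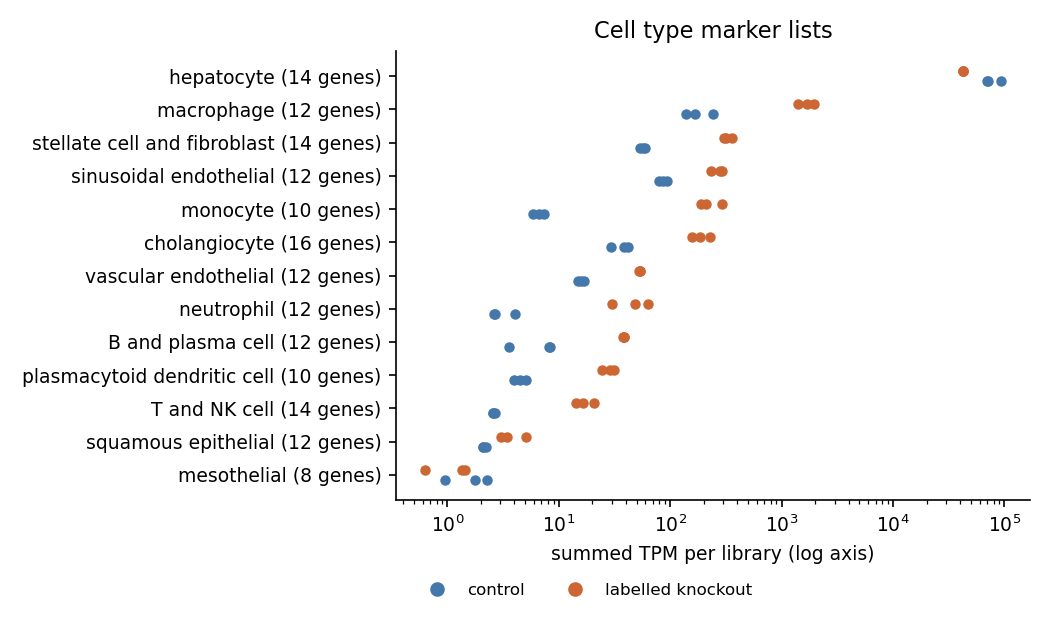
Summed TPM of 13 cell type marker lists in each library on a log axis, controls in blue and labelled knockout in orange. Hepatocyte markers are lower in the knockout-labelled livers, mesothelial markers overlap, squamous epithelial markers stay at 5.1 TPM or less, and the other lists are higher with no overlap.

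The pattern over the 6 libraries was shared with many genes. The tested genes with a Pearson r of at least 0.99 on log2(TPM + 1) numbered 2984 for Defb1, 2363 for Sprr1a, 2212 for Ly6d, 1581 for Ly6a and 204 for Ly6c1. The most alike were Fkbp1a, Emilin2 and Ifrd1 for Defb1, Thy1, C3ar1 and Psrc1 for Sprr1a, and Rexo2, Arhgap4 and S100a11 for Ly6d. Zfp945, Herc6 and Hccs were most like Ly6a, and Cep70, Coprs and Gpr157 most like Ly6c1. All 15 had r of at least 0.9986 over 6 libraries, and since the points fall into 2 groups, r mostly records the group difference and carries no test. Their own fold changes ran from 0.60 on the log2 scale for Gpr157 to 6.41 for S100a11.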

How the data were processed

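Total RNA of snap-frozen liver was extracted with Trizol and made into Illumina libraries, per the labels' protocols. The authors deposited 1 table of TPM values for all 6 samples. Per the submitters' processing notes, mm10 was the build and RSEM, edgeR and STAR 2.6.1c were among the tools, with no role or order given, and the strand setting is not given in the sources used here. RSEM-type quantifiers share ambiguous reads among genes, which touches Ly6a, Ly6c1 and Ly6c2. TPM keeps no read number, so counting errors and detection limits are unknown, and a gene's value also moves when abundant genes take less of the total.

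Columns were matched to sample titles, with 0 left unmapped. Of 55536 identifiers 55450 matched GENCODE M21 (GRCm38) with the same symbol. The 12796 genes that reached 1 TPM in 3 or more libraries were fitted as log2(TPM + 1) in limma 3.58.1 (R 4.3.3, intensity trend, robust variances, no replicate block), with Benjamini-Hochberg adjustment over all of them at 0.05. Of these, 1614 were under 1 TPM in every control and could pass only by being higher. On simulated data for this comparison (10831 genes, 100 changed at each size) 92% of genes changed by 1 and 99% of those changed by 2 log2 units were recovered, with 9 false calls.

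The members and lists were chosen with earlier results of these data known, so the members carry no p-value. The rule for named genes took the 5 members, Ly6c2 and Ly6e, up to 3 called genes with the largest rise and fall of each of 7 lists, up to 2 called neighbours per member, and the 3 tested genes most correlated with each member. Ivl, Sprr1b, Sprr2a2, Cd59a, Ly6g, Defb42, Ly6i, Ly6k, Lynx1, Krt5, Mafg, Fos, Jun, Junb and the bile duct genes are outside that rule and were picked with their values in view. Alternatives changed the pseudocount, filter, scaling, variance model, threshold and replicate block, or omitted 1 library at a time, on the genes of the main filter. Python 3.11.15 and matplotlib 3.10.9 made the figures.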

Additional observations from a re-analysis of the deposited data

How the results depend on the processing

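The 5 members kept their direction under each of the 11 alternatives run for them. Since their groups do not overlap, omitting a library or changing the pseudocount could not have reversed it, so these alternatives bear on size only. Ly6d ranged from 6.99 to 8.45, Sprr1a from 7.59 to 10.98, Defb1 from 6.97 to 8.84, Ly6a from 4.55 to 5.85 and Ly6c1 from 0.66 (quantile normalization) to 2.84 (pseudocount 0.1) in log2 fold change. With a library left out, Ly6d lay between 7.67 and 7.85, Sprr1a between 7.89 and 8.28, Defb1 between 7.48 and 7.84, Ly6a between 5.12 and 5.85 and Ly6c1 between 1.33 and 1.63.

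Of 256 counts of genes by list and alternative, 243 were within 1.5 times the main count. The Sprr and beta-defensin lists had 0 genes tested in the main fit. Their counts, which are among the 256, could not change under alternatives that kept the main filter. Over all genes, 4496 were higher and 4689 lower with median-of-ratios scaling, and 4520 and 4534 with quantile normalization, against 9537 and 1369 as deposited. Lower calls in the Ly6 and urokinase receptor family numbered 2 with median-of-ratios scaling, with quantile normalization and rescaled without the Mup genes, and those of the cornified envelope list 2 with the first pair. Median-of-ratios scaling also gave 3 lower interferon response genes and 1 lower AP-1 gene. With no filter, 12 of the Ly6 and urokinase receptor family were higher, and 1 beta-defensin gene. With a library left out, higher calls over all genes ranged from 9187 to 9604, lower calls from 1259 to 1348 and higher AP-1 genes from 9 to 12. With the replicate number as a block 9427 genes were higher and 1333 lower and no list count changed. Samples of the same number did not deviate together (correlations of deviations 0.08, 0.04 and -0.12 for replicates 1, 2 and 3). With 3 libraries per group, this cannot tell whether samples of the same number share more than that number. The unknown depth limits what can be said of values near 0, such as Sprr1a and Gml in the controls.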
